A study of Mus musculus with 16 samples.

Results

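The 10 genes described here are markers of brain pericytes: Pdgfrb, Rgs5, Kcnj8, Abcc9, Cspg4, Anpep, Vtn, Notch3, Higd1b and Atp13a5. They were found by their symbols in a table of raw read counts with 55487 gene identifiers, each on a single identifier, and all 10 were among the 18609 genes that reached at least 10 counts in at least 4 mice. RNA came from bulk brain tissue of 16 female mice on a C57BL/6J background, 4 in each of 4 groups: CETPtg given vehicle (mice S1 to S4), CETPtg given evacetrapib (A to D), APPtg/CETPtg given vehicle (S5 to S8) and APPtg/CETPtg given evacetrapib (E to H). All 16 mice carried the human CETP gene under its own promoter, were heterozygous for it, ate chow until 11 weeks of age and were then put on a diet with 1% cholesterol. The APPtg/CETPtg mice also carried a human APP transgene with the Swedish and Indiana changes, driven in neurons by the Thy1 promoter. Evacetrapib, an inhibitor of the cholesteryl ester transfer protein CETP, was given intraperitoneally at 30 mg/kg per day for 11 weeks, and vehicle mice received the carrier solution. Neither transgene is a mouse gene, and no mice without CETP were analysed here, so each comparison below was made within CETP carriers.

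Pericytes are mural cells that sit in the basement membrane of capillaries, against the endothelium, and in the brain they help to form and keep the blood-brain barrier and to set capillary tone. Endothelial cells recruit them by secreting PDGF-B, which binds the receptor PDGFRβ on the pericyte, and Notch ligands on neighboring cells act on the pericyte's NOTCH3 receptor. Many of their markers are shared with the smooth muscle cells of arterioles, and Cspg4 is also made by oligodendrocyte precursors. In bulk tissue, fewer pericytes and less RNA per pericyte cannot be told apart.

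The libraries held 21391335 to 55453789 counts per mouse, with a median of 30988142.5. The 8 CETPtg libraries ranged from 28626139 to 46800787 counts and 7 of the 8 APPtg/CETPtg libraries from 21391335 to 27398792, while vehicle mouse S8 had the largest library of the series. Positions of the sequencing indices on the plate followed the groups, by letter for treatment and by number for genotype, so index position and group cannot be told apart. Thy1, the gene whose promoter drives the APP transgene, ran from 865 to 2060 CPM in the APPtg/CETPtg mice and from 684 to 807 CPM in the CETPtg mice. The values serve as a check on the genotype labels only. Whether reads of the transgene were counted under Thy1 was not tested. The 6 neuron markers tested summed to 6320 to 7540 CPM over the mice, as a check on the labeled tissue. CPM, the usual depth-scaled unit, divides each count by the TMM-scaled total of its library.

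Promoters are shown for 3 of the genes, because Rgs5 had the smallest p for treatment among the 10, Notch3 was lower in APPtg/CETPtg mice, and Vtn had the highest level per length. Each is the RefSeq sequence on GRCm38.p6 from 250 bases before to 50 after the annotated start, read 5′ to 3′ on the gene's strand, and capitals mark a match to a searched motif on either strand. The windows are chr1:169655251-169655550 on the plus strand for Rgs5, chr17:32166841-32167140 on the minus strand for Notch3 and chr11:78498870-78499169 on the plus strand for Vtn.
Rgs5: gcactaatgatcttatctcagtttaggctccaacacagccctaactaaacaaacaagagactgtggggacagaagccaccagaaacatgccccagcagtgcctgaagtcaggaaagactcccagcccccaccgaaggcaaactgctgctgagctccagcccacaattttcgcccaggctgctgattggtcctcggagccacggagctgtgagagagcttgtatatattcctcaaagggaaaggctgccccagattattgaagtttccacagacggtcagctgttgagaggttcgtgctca
Notch3: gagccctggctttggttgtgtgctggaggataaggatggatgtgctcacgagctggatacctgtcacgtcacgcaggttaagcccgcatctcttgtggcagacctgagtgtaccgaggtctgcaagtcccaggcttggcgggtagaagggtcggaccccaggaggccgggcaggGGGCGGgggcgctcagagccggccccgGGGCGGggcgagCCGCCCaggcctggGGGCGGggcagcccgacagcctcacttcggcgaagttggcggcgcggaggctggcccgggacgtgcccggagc
Vtn: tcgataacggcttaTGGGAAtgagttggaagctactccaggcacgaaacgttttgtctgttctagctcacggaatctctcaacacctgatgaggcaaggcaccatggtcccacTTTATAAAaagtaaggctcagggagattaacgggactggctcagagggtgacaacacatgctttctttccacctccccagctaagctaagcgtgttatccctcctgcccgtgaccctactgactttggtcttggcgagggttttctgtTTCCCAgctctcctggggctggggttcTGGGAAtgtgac
The motifs searched were the TATA box TATAAA, the GC box GGGCGG, the RBPJ core TGGGAA, the forkhead motif TGTTTAC, the E-box CACGTG and the CArG box, the site of serum response factor. None of the 6 motifs matched in Rgs5 or Atp13a5. Notch3 and Anpep held 4 GC boxes each, Cspg4 held 2, and Abcc9 held 1 beside 1 RBPJ core. Vtn held 3 RBPJ cores and 2 TATA matches on opposite strands that overlap each other, and Kcnj8 held 1 RBPJ core. Among 32851 mouse promoter windows of this length, 13.6% held the TATA box, 35.7% the GC box, 25.6% the RBPJ core, 3.65% the forkhead motif, 7.15% the E-box and 1.63% the CArG box. The matches are a description of the letters and not of binding. The Pdgfrb promoter is not shown, and that of Higd1b was not analysed here.

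Per kilobase of exon, Vtn had the highest level, with a median over the 16 mice of 32.1 CPM per kb and a range of 25.8 to 44. Rgs5 came next at a median of 15.5 CPM per kb (12.2 to 18), followed by Pdgfrb at 5.18 CPM per kb (4.04 to 5.84). The ranges of these 3 genes did not overlap each other or that of the gene below. The other 7 genes ran from 2.55 CPM per kb for Notch3 through Atp13a5, Cspg4, Higd1b, Kcnj8 and Anpep to 1.12 CPM per kb for Abcc9, and each range over mice overlapped that of its neighbor in this order. Higd1b was the least counted, with 27 to 117 reads per mouse, and Kcnj8 had 47 to 228, so counting error was widest for these.

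To ask whether evacetrapib altered the pericyte markers, treated mice were compared with vehicle mice over both genotypes, with genotype as a term in the fit. All 10 genes had a log2 fold change above 0, from 0.07 for Cspg4 to 0.25 for Rgs5, but none passed the test. A gene was called where its edgeR adjusted p reached 0.05 and the groups differed by 5% or more. The median log2 fold change of the 10 was 0.159, against -0.0015 over all 18609 genes, of which 49.2% were above 0. In the same comparison, 2 of all genes (0.0107%) were called. Rgs5, Notch3, Vtn, Pdgfrb and Abcc9 had an unadjusted p under 0.05 and were higher in treated mice, as were 4.12% of all genes. DESeq2 called Rgs5 in the same comparison (log2 fold change 0.248, adjusted p = 0.0115) and 59 genes in all, and limma-voom called none of the 10 and 2 genes in all. An edgeR fit with no filter on low counts also called Rgs5, with an adjusted p of 0.0292, and 35 genes in all (0.101%). No mouse left out brought any of the 10 past the threshold here, and their median log2 fold change then ranged from 0.129 to 0.182.

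**Figure D1:**
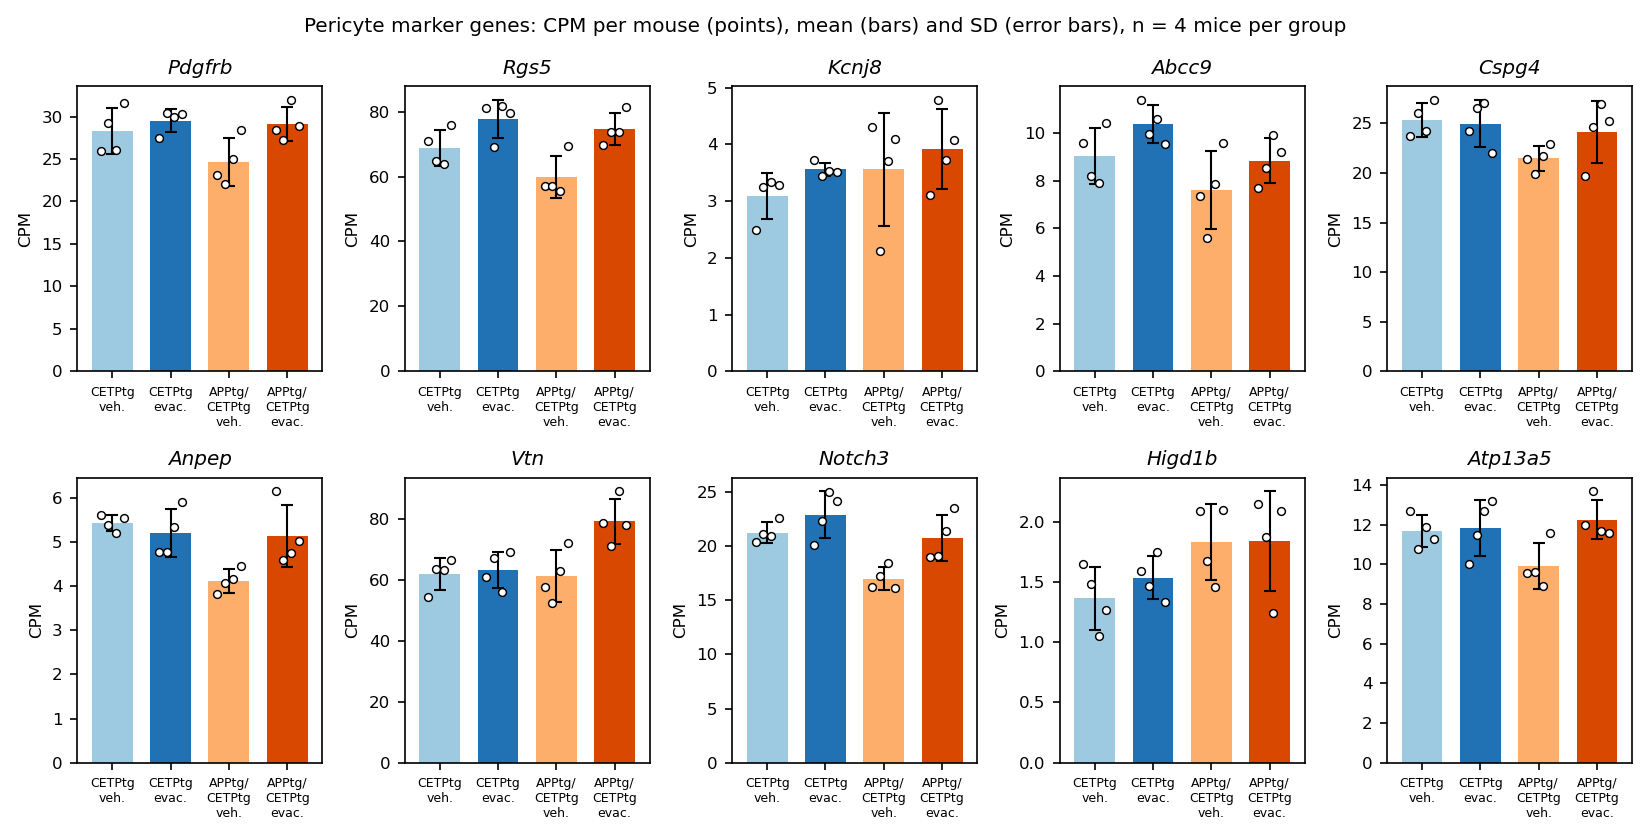
CPM of the 10 pericyte marker genes (y axis, from 0) in the 4 groups (x axis; veh., vehicle; evac., evacetrapib). Points are mice, bars are means and error bars are SDs of 4 mice. Vehicle-treated APPtg/CETPtg mice had the lowest mean of the 4 groups for Pdgfrb, Rgs5, Abcc9, Cspg4, Anpep, Vtn, Notch3 and Atp13a5.

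Rgs5, a regulator of G-protein signaling and one of the most abundant pericyte transcripts, lies at chr1:169655501-169695813 (GRCm38). Its CPM was 70.9, 64.7, 64 and 75.8 in the CETPtg vehicle mice and 81, 69.1, 81.6 and 79.6 in the CETPtg mice on evacetrapib. In the APPtg/CETPtg vehicle mice it was 57, 57.2, 55.6 and 69.5 CPM, and in the APPtg/CETPtg mice on evacetrapib 69.8, 73.7, 73.6 and 81.5 CPM. Treated and vehicle mice overlapped within CETPtg through mouse B, and did not overlap within APPtg/CETPtg, although the highest vehicle value, in S8, lay just under the lowest treated value. Over both genotypes the log2 fold change was 0.25 ± 0.06 (SE), with an edgeR adjusted p of 0.169. It was 0.18 ± 0.08 within CETPtg and 0.31 ± 0.08 within APPtg/CETPtg, with edgeR adjusted p of 0.837 and 0.226. Without S8, the deepest library, the second of these was 0.40 with an edgeR adjusted p of 0.0467, the only call among the 10 genes that leaving out a mouse made for treatment. That was the highest value with a mouse left out. The lowest was 0.278, without mouse H, and the edgeR adjusted p of these fits reached up to 0.479. DESeq2 on all mice gave 0.315 with an adjusted p of 0.037 within APPtg/CETPtg.

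Within CETPtg, none of the 10 genes was called, nor was any of all genes tested (0%), and DESeq2 and limma-voom also called none of all genes. Rgs5 alone of the 10 had an unadjusted p under 0.05 and was higher, where 570 of all genes (3.06%) were. The log2 fold change was above 0 for 8 of the 10, as for 49.1% of all genes, and the median was 0.087. Cspg4 and Anpep had values below 0 at -0.02 and -0.07. Kcnj8 alone had all treated mice above all vehicle mice, as had 2.1% of all genes.

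Within APPtg/CETPtg, again none of the 10 was called, where 8 of all genes (0.043%) were. Rgs5, Vtn, Notch3, Anpep, Atp13a5 and Pdgfrb had an unadjusted p under 0.05 and were higher in treated mice, as were 4.7% of all genes. All 10 values were above 0, as were 49.6% of all genes, with Higd1b at a log2 fold change of 0.00, and the median was 0.259 against -0.0011 over all genes. The 4 treated mice lay above the 4 vehicle mice without overlap for Rgs5, Notch3, Anpep and Atp13a5, as they did for 1.97% of all genes. DESeq2 called Rgs5 and Vtn, with adjusted p of 0.037 and 0.0377, and 73 of all genes (0.392%). With no filter on low counts, edgeR also called both, with adjusted p of 0.0271 and 0.0156, and 88 of all genes (0.253%). Without S8 the unadjusted count was 7 of 10, beside 5.48% of all genes. With any other mouse left out it was 6 of 10, beside 3.74% to 6.45% of all genes.

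Whether the treatment effect differed between the genotypes was tested by the interaction term, the log2 fold change in APPtg/CETPtg minus that in CETPtg. None of the 10 was called by edgeR, DESeq2 or limma-voom, and edgeR called none of all genes (0%) and DESeq2 2. The term was above 0 for 7 of the 10, as for 49.7% of all genes, with a median of 0.172. Anpep and Vtn had an unadjusted p under 0.05 and a positive term, as had 3.65% of all genes. Without S8 the count was 5 of 10, beside 3.62% of all genes. With each other mouse left out in turn it ranged from 1 to 3 of 10, beside 2.53% to 5.26% of all genes. No difference between the genotypes in the response of these genes was therefore shown at 4 mice per group.

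**Figure D2:**
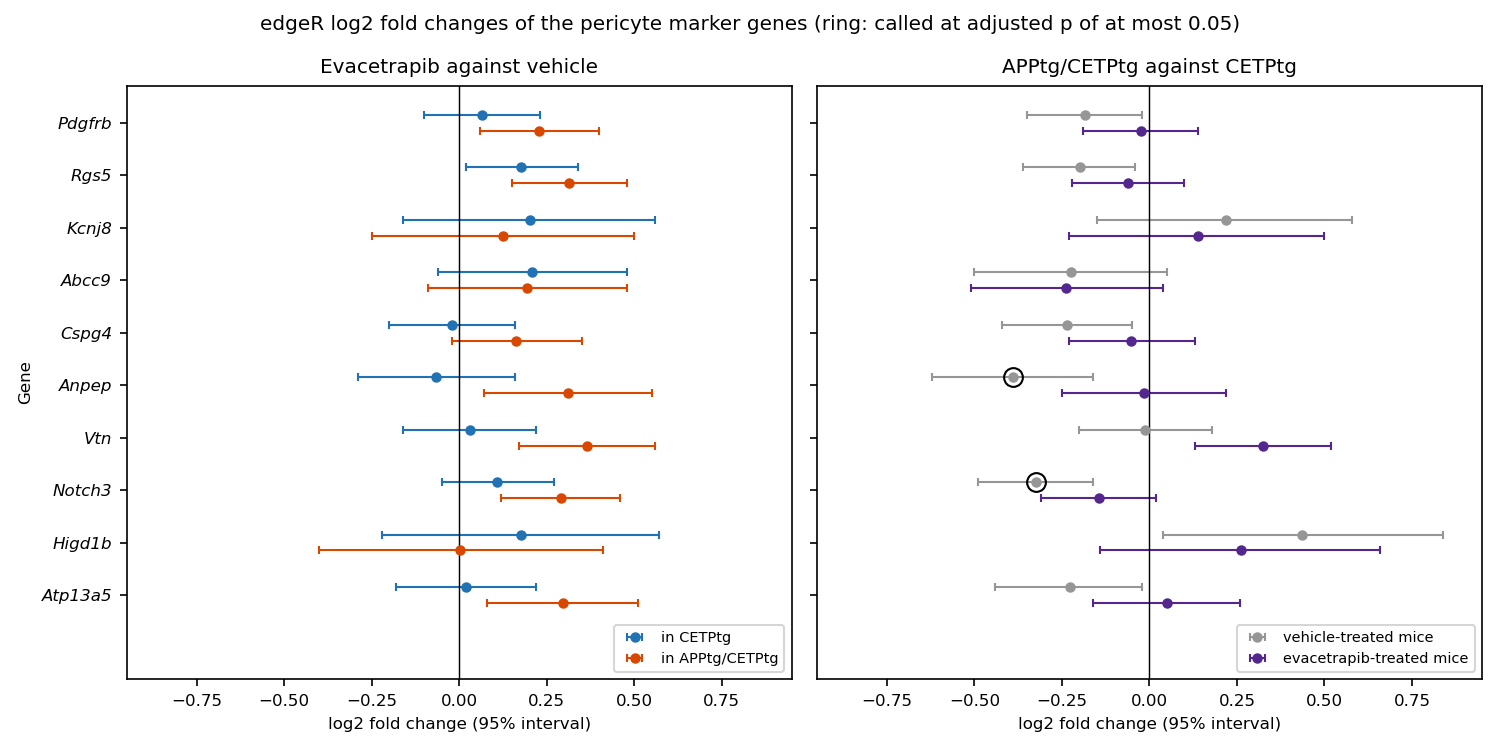
Log2 fold changes (x axis) of the 10 genes (y axis) from edgeR with 95% intervals as bars. Left, evacetrapib against vehicle within each genotype; right, APPtg/CETPtg against CETPtg within each treatment; rings mark called genes, Anpep and Notch3 among vehicle-treated mice. The left APPtg/CETPtg values and the right vehicle values share the same 4 vehicle mice.

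Of the receptors, Pdgfrb on chromosome 18 encodes PDGFRβ, the receptor for endothelial PDGF-B. It stood at 26, 29.3, 26.1 and 31.6 CPM in CETPtg vehicle mice and at 27.5, 30.4, 29.9 and 30.3 CPM in CETPtg mice on evacetrapib. In APPtg/CETPtg it stood at 23.1, 22.1, 25 and 28.4 CPM on vehicle and at 28.4, 27.2, 32 and 28.9 CPM on evacetrapib. S5, S6 and S7 were the 3 lowest mice of the series and S8 lay among the treated values, so the groups overlapped. The log2 fold change within APPtg/CETPtg was 0.23 ± 0.08 (SE) with an edgeR adjusted p of 0.39, and within CETPtg 0.07 ± 0.08 with an edgeR adjusted p of 0.92.

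Notch3, the Notch receptor of mural cells, lies at chr17:32120820-32166852. Its CPM in CETPtg mice was 20.4, 21.1, 20.9 and 22.6 on vehicle and 20.1, 22.3, 25 and 24.2 on evacetrapib. In APPtg/CETPtg mice it was 16.2, 17.2, 18.4 and 16.1 on vehicle and 19, 19.1, 21.4 and 23.5 on evacetrapib. All 4 APPtg/CETPtg vehicle mice, S8 included, were below every other mouse of the series, a pattern whose share over all genes was not computed. Over both treatments Notch3 was lower in APPtg/CETPtg mice by 0.23 ± 0.06 (SE) on the log2 scale (a log2 fold change of -0.23), with an edgeR adjusted p of 0.00832. It was the single one of the 10 genes called for genotype, where 8.38% of all genes were called lower and 9.35% higher. The call held in every fit that left out 1 mouse, with log2 fold changes from -0.277 to -0.213. Among evacetrapib mice alone Notch3 was not called (log2 fold change -0.14, edgeR adjusted p = 0.328). For treatment within APPtg/CETPtg the log2 fold change was 0.29 ± 0.08 with an edgeR adjusted p of 0.265, and within CETPtg 0.11 ± 0.08 with 0.873. Notch3 shares 488 exon bases with Gm17276 on the opposite strand, which had 65 to 248 counts, and the strand setting of the counting is not given in the sources used here.

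Of the PDGF genes, Pdgfb, the ligand of PDGFRβ, was higher in APPtg/CETPtg mice, at 36.4 ± 6.83 CPM on vehicle and 37.3 ± 4.38 on evacetrapib against 28.9 ± 1.11 and 31.2 ± 1.25 CPM in CETPtg (SD, n = 4 each). Its log2 fold change for genotype was 0.29 with an edgeR adjusted p of 0.00544, and for treatment over all mice 0.07 with 0.844. Pdgfra, the other PDGF receptor, which marks oligodendrocyte precursors and fibroblasts, was lower in APPtg/CETPtg (log2 fold change -0.19, edgeR adjusted p = 0.0285), as was the signaling phosphatase Ptpn11 (-0.13, edgeR adjusted p = 0.00531). Of all genes, 8.38% were called lower and 9.35% higher for genotype. None of the 9 PDGF genes beside Pdgfrb was called for treatment over all mice, and Pdgfa, the ligand of PDGFRα, had a log2 fold change of 0.06.

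Of 14 Notch genes beside Notch3, none was called for treatment over all mice, with a median log2 fold change of -0.01. For genotype, the ligand Jag1 (-0.29, edgeR adjusted p = 0.0227), the receptor Notch1 (-0.20, edgeR adjusted p = 0.0293) and the DNA-binding partner Rbpj (-0.15, edgeR adjusted p = 0.0346) were lower in APPtg/CETPtg and none was higher, where 8.38% of all genes were called lower and 9.35% higher. Jag1 stood at 6.56 ± 0.447 CPM in APPtg/CETPtg vehicle mice and 8.68 ± 0.841 CPM in CETPtg vehicle mice (SD, n = 4). Among vehicle mice alone, Jag1, Notch1 and Notch2 were called, all lower in APPtg/CETPtg, where 4.42% of all genes were called lower and 5.98% higher. Dll4, an endothelial ligand, had log2 fold changes of 0.31 for treatment and 0.32 for genotype, with edgeR adjusted p of 0.534 and 0.0696.

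Kcnj8 and Abcc9, neighbors on chromosome 6 at 142564837 to 142571614 and 142587862 to 142702315, encode the pore and the sulfonylurea-receptor subunit of the ATP-sensitive potassium channel of mural cells. Kcnj8 ranged from 2.49 to 3.34 CPM in CETPtg vehicle mice and from 3.45 to 3.73 CPM in CETPtg mice on evacetrapib. It ranged from 2.12 to 4.31 and from 3.1 to 4.79 CPM in the same groups of APPtg/CETPtg. The CETPtg groups did not overlap and the APPtg/CETPtg groups did, S6 being the lowest mouse of the series for both channel genes. The log2 fold change of Kcnj8 over all mice was 0.17 ± 0.12 (SE) with an edgeR adjusted p of 0.793, and 0.094 without S6.

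Abcc9 ranged from 7.91 to 10.4 CPM in CETPtg vehicle mice and from 9.54 to 11.4 CPM in CETPtg mice on evacetrapib, and from 5.59 to 9.58 and from 7.7 to 9.91 CPM in the APPtg/CETPtg groups. Treated and vehicle mice overlapped in both genotypes. The log2 fold change over all mice was 0.20 ± 0.09 (SE) with an edgeR adjusted p of 0.609, and it was 0.21 within CETPtg and 0.19 within APPtg/CETPtg, with an interaction term of -0.01 and a 95% interval from -0.41 to 0.38. Within APPtg/CETPtg the value was 0.082 without S6 and 0.342 without S8. For genotype the log2 fold change of Abcc9 was -0.23 with an edgeR adjusted p of 0.0852, and DESeq2 called it with an adjusted p of 0.0464, where it called 20% of all genes. Without S8 the genotype value was -0.298 with an edgeR adjusted p of 0.0247. Kcnj11 and Abcc8, the subunits of the related channel of neurons and β-cells, had log2 fold changes of -0.00 and -0.08 for treatment and 0.07 and -0.03 for genotype, none called.

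Of the surface proteins, Anpep at chr7:79821803-79861059 encodes aminopeptidase N, a peptide-trimming enzyme on the pericyte membrane. It measured 5.61, 5.38, 5.2 and 5.53 CPM in CETPtg vehicle mice and 4.76, 4.77, 5.34 and 5.9 CPM in CETPtg mice on evacetrapib. In APPtg/CETPtg it measured 3.81, 4.06, 4.15 and 4.46 CPM on vehicle and 6.15, 4.59, 4.75 and 5.01 CPM on evacetrapib. The 4 APPtg/CETPtg vehicle mice were the lowest of the series without overlap with any other mouse, and mouse E was the highest. How many of all genes had this group below every other mouse was not computed. The log2 fold change for treatment was 0.31 ± 0.11 (SE) within APPtg/CETPtg with an edgeR adjusted p of 0.41, and -0.07 ± 0.11 within CETPtg with 0.942. The interaction term of Anpep was 0.38 ± 0.16, with a 95% interval from 0.05 to 0.70 and an edgeR adjusted p of 0.703.

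Cspg4, at chr9:56865033-56899870, encodes the NG2 proteoglycan, which both pericytes and oligodendrocyte precursors carry. It ranged from 23.7 to 27.4 CPM in CETPtg vehicle mice and from 22 to 27.1 CPM in CETPtg mice on evacetrapib, and from 19.9 to 22.9 and from 19.7 to 27 CPM in the APPtg/CETPtg groups. Vehicle mice of the genotypes did not overlap, and all other pairs of groups did. Cspg4 had the smallest fold change of the 10 for treatment over all mice, with a log2 value of 0.07 ± 0.06 (SE) and an edgeR adjusted p of 0.852. The 10 oligodendrocyte precursor markers summed to 356 to 442 CPM over the mice, and for treatment their median log2 fold change was -0.015, with Olig2 at 0.03. For genotype, Pdgfra, Vcan and Cacng4 among them were called, all lower in APPtg/CETPtg, where 8.38% of all genes were called lower. The part of these cells in the Cspg4 values was not tested.

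Vtn, at chr11:78499091-78502324, encodes vitronectin, an adhesive protein that brain pericytes secrete and that binds αv integrins. Its CPM was 54.5, 63.7, 63.4 and 66.5 in CETPtg vehicle mice and 61.1, 67.2, 56.1 and 69.1 in CETPtg mice on evacetrapib. In APPtg/CETPtg it was 57.6, 52.4, 63 and 72.3 CPM on vehicle and 78.6, 71.3, 89.2 and 78 CPM on evacetrapib. The last group held the 4 highest mice of the series apart from S8, which lay just above mouse F. The log2 fold change for treatment was 0.37 ± 0.09 (SE) within APPtg/CETPtg with an edgeR adjusted p of 0.226, and 0.03 ± 0.09 within CETPtg with 0.974. Without S8 the first was 0.458 with an edgeR adjusted p of 0.0545, the highest value with a mouse left out. The lowest was 0.302, without S6, and the edgeR adjusted p of these fits reached up to 0.503. The interaction term of Vtn was 0.33 ± 0.13, with a 95% interval from 0.06 to 0.61 and an edgeR adjusted p of 0.703.

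Of 18 genes for vitronectin receptors and basement membrane, none was called for treatment over all mice, 16 had log2 fold changes above 0 and the median was 0.096. For genotype, the type IV collagens Col4a1 (0.27, edgeR adjusted p = 0.00631) and Col4a2 (0.32, edgeR adjusted p = 0.00147) were higher in APPtg/CETPtg. Fibronectin Fn1 (-0.26, edgeR adjusted p = 0.0104) and the integrin Itgav (-0.23, edgeR adjusted p = 0.00736) were lower. Of all genes, 9.35% were called higher and 8.38% lower for genotype. Itgav, which pairs with Itgb3 to bind vitronectin, had a log2 fold change of 0.04 for treatment, and Itgb3 0.23 with an edgeR adjusted p of 0.589.

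Atp13a5, at chr16:29231851-29378732, encodes a P-type ATPase whose brain expression is largely in pericytes. It measured 12.7, 10.8, 11.9 and 11.3 CPM in CETPtg vehicle mice and 10, 11.5, 12.7 and 13.2 CPM in CETPtg mice on evacetrapib. In APPtg/CETPtg it measured 9.57, 9.6, 8.91 and 11.6 CPM on vehicle and 12, 13.7, 11.7 and 11.6 CPM on evacetrapib. The CETPtg groups overlapped and the APPtg/CETPtg groups did not, with S8 and mouse H the same after rounding. The log2 fold change within APPtg/CETPtg was 0.30 ± 0.10 (SE) with an edgeR adjusted p of 0.378, and the interaction term 0.28 ± 0.14 with 0.735.

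Higd1b, at chr11:102835849-102838040, encodes a small membrane protein of the hypoxia-inducible gene domain family. It stood at 1.36 ± 0.26 and 1.54 ± 0.178 CPM in CETPtg mice on vehicle and evacetrapib, and at 1.83 ± 0.32 and 1.84 ± 0.414 CPM in the APPtg/CETPtg groups (SD, n = 4). It had the highest log2 fold change of the 10 for genotype, 0.35 ± 0.13 (SE) with an edgeR adjusted p of 0.0767, and treated and vehicle mice overlapped in both genotypes. Higd1b was also the gene least like the others across mice, with r = -0.19 and rho = -0.2 between its log2 CPM and the mean standardized log2 CPM of the other 9 over 16 mice, where Pdgfrb and Rgs5 had r = 0.86 each. Group means were left in for these values, so differences between groups enter them, and Higd1b was the least counted of the 10.

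**Figure D3:**
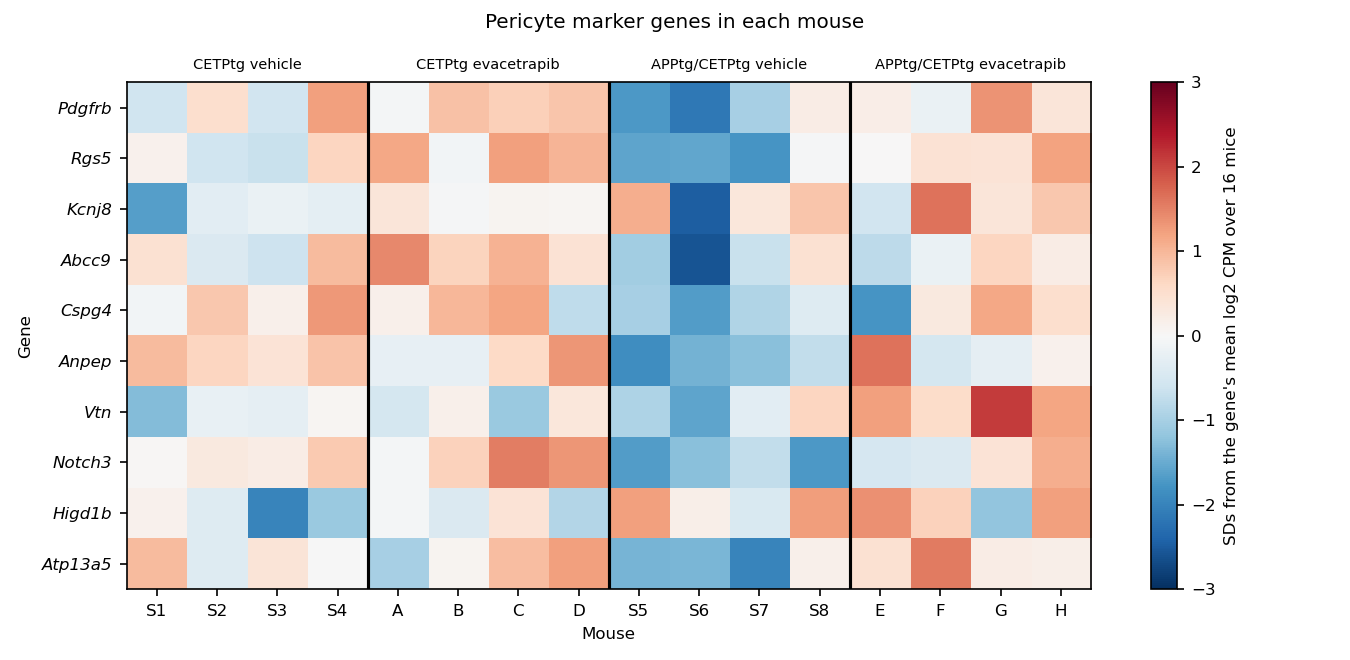
Each gene (rows) in each mouse (columns, by group), as the distance of its log2 CPM from the gene's mean over 16 mice in SDs (color scale). S5, S6 and S7 were below the mean for most genes, and S8, of the same group, was above it for 6 of 10.

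To ask whether the markers differed by genotype, APPtg/CETPtg mice were compared with CETPtg mice over both treatments. Of the 10 genes, Notch3 was called lower, where 8.38% of all genes were called lower, and none was called higher, where 9.35% were. The median log2 fold change of the 10 was -0.117 against 0.0046 over all genes. Rgs5, Abcc9, Cspg4, Anpep and Notch3 were lower and Vtn and Higd1b higher at an unadjusted p under 0.05. With 1 mouse left out in turn, 13.4% to 15.9% of all genes were higher at that level. The share of all genes lower at that level was not computed. In the same comparison edgeR called 3299 of all genes and DESeq2 3719. Leaving out 1 mouse moved the edgeR count to between 2503 and 3590 and added calls to Notch3, namely Rgs5 without B (edgeR adjusted p = 0.0377) or S8 (0.047), Cspg4 without D (0.0494) or G (0.0406), Anpep without E (0.0224), Higd1b without G (0.0263) and Abcc9 without S8 (0.0247). The 8 APPtg/CETPtg mice did not lie entirely below the 8 CETPtg mice for any of the 10, where 1.3% of all genes did. Library depth was lower in 7 of the 8 APPtg/CETPtg mice, and its part in these values was not tested.

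Split by treatment, a split made after the data were seen, Anpep and Notch3 were called lower in APPtg/CETPtg among vehicle mice, where 4.42% of all genes were called lower and 5.98% higher. Anpep had a log2 fold change of -0.39 ± 0.11 (SE, edgeR adjusted p = 0.0309) and Notch3 of -0.33 ± 0.08 (edgeR adjusted p = 0.0144). Both, and Cspg4, had all 4 APPtg/CETPtg vehicle mice below all 4 CETPtg vehicle mice, as had 7.33% of all genes. Among evacetrapib mice none of the 10 was called, where 1.71% of all genes were called lower and 1.27% higher, and none had all APPtg/CETPtg mice below all CETPtg mice, where 5.16% of all genes did. Vtn was separated the other way there, at 71.3 to 89.2 CPM in APPtg/CETPtg and 56.1 to 69.1 CPM in CETPtg. The share of all genes separated upward was not computed. The median of the 10 was -0.211 among vehicle mice and -0.019 among evacetrapib mice. Vtn was the gene nearest to a call among evacetrapib mice, with a log2 fold change of 0.32 ± 0.09 and an edgeR adjusted p of 0.0606, and among vehicle mice its value was -0.01. The difference between these splits is the interaction term given above, for which none of the 10 was called.

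Summed over the 10 genes, the level was 228 to 256 CPM in CETPtg vehicle mice, 245 to 259 CPM in CETPtg mice on evacetrapib, 192 to 241 CPM in APPtg/CETPtg vehicle mice and 246 to 275 CPM in APPtg/CETPtg mice on evacetrapib. The mice S5, S6 and S7 made the low end, and S8 overlapped the CETPtg vehicle mice. Of the 10 genes, 2, 1 and 1 were above their mean over 16 mice in S5, S6 and S7, and 6 were in S8.

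Markers of other vessel cells stood beside these values. Myh11, the myosin heavy chain of smooth muscle, was called for treatment over all mice (log2 fold change 0.56, edgeR adjusted p = 0.0193), the only called gene of the 10 smooth muscle markers tested, and Acta2 and Tagln had 0.58 and 0.48 with edgeR adjusted p of 0.129 each. The smooth muscle markers summed to 64.8 to 78 and 62.8 to 76.7 CPM in the vehicle groups of CETPtg and APPtg/CETPtg and to 73.6 to 86.3 and 79 to 87.4 CPM in the treated groups, and Myocd was too low to test. The 15 endothelial markers had a median log2 fold change of 0.237, with 14 above 0 and none called, and summed to 312 to 367 and 285 to 347 CPM on vehicle and to 351 to 401 and 355 to 411 CPM on evacetrapib. Pecam1, Cdh5 and Cldn5, an adhesion molecule, a cadherin and a tight-junction protein of endothelium, had log2 fold changes of 0.31, 0.33 and 0.43 with edgeR adjusted p of 0.169, 0.173 and 0.22. The exception below 0, named after its values were seen, was Mfsd2a, a lipid transporter of brain endothelium, at -0.25 over all mice (edgeR adjusted p = 0.485) and -0.43 within APPtg/CETPtg (0.266). The part of smooth muscle and endothelial content in the pericyte values was not tested.

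Fibroblast and meningeal markers had a median log2 fold change of 0.165 over 9 genes tested, with Col1a1 at 0.27 and Dcn at 0.01 and none called, and summed to 97.9 to 133 CPM over the mice. Their median was -0.012 within CETPtg, with 4 of 9 above 0, and 0.307 within APPtg/CETPtg, with 8 of 9 above 0, beside pericyte medians of 0.087 and 0.259, and their part in the pericyte values was not tested. The 25 further mural genes, such as Cd248, Tbx18 and Foxf2, had a median of 0.072, with 19 above 0 and none called. Within CETPtg and APPtg/CETPtg their medians were -0.024 and 0.165. Smooth muscle markers had 0.222 and 0.175 there, and endothelial markers 0.196 and 0.252. The genotype calls among the further mural genes were Ebf1, lower in APPtg/CETPtg (-0.34, edgeR adjusted p = 0.0291), and Ndufa4l2, higher (0.41, edgeR adjusted p = 0.0112). The 14 genes of other pericyte-endothelial signals, such as the angiopoietins and TGF-β receptors, had a median of 0.11 and none called for treatment, and Cdh2, the cadherin of pericyte-endothelial contacts, was lower for genotype (-0.12, edgeR adjusted p = 0.0369). The endothelial transporter Slco1a4 was lower as well (-0.24, edgeR adjusted p = 0.0335). Of all genes, 8.38% were called lower and 9.35% higher for genotype.

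Choroid plexus markers varied widely between single mice. They summed to 10.1 to 162 CPM in all mice but S8, where they summed to 459.8 CPM, and their median log2 fold change for treatment was -0.757, none called. Hemoglobin and other red cell genes summed to 69.9 to 289 CPM. For treatment these 5 genes had a median log2 fold change of 0.386 within CETPtg, with 5 of 5 above 0, and of -0.415 within APPtg/CETPtg, with 0 of 5 above 0. The highest sums were 288.9 CPM in mouse A and 230.7 CPM in S8. Median sums on vehicle and evacetrapib were 134 and 135 CPM in CETPtg, and 129 and 124 CPM in APPtg/CETPtg. The median interaction term of the 5 genes was -0.802, with no gene called in any of these comparisons. Astrocyte, microglia and neuron markers had medians of 0.015, 0.003 and -0.006 for treatment, with none called. For genotype, the astrocyte markers Gja1 (-0.21, edgeR adjusted p = 0.00919) and Aldoc (0.14, edgeR adjusted p = 0.0236) and the microglia markers Tmem119 (0.29, edgeR adjusted p = 0.000645) and C1qa (0.22, edgeR adjusted p = 0.0292) were called, and among vehicle mice also Aqp4 and Slc1a3. Of all genes, 17.7% were called for genotype over all mice and 10.4% among vehicle mice. None of the marker lists was at 0 in every mouse for any gene. The part of tissue composition in the pericyte values was not tested.

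**Figure D4:**
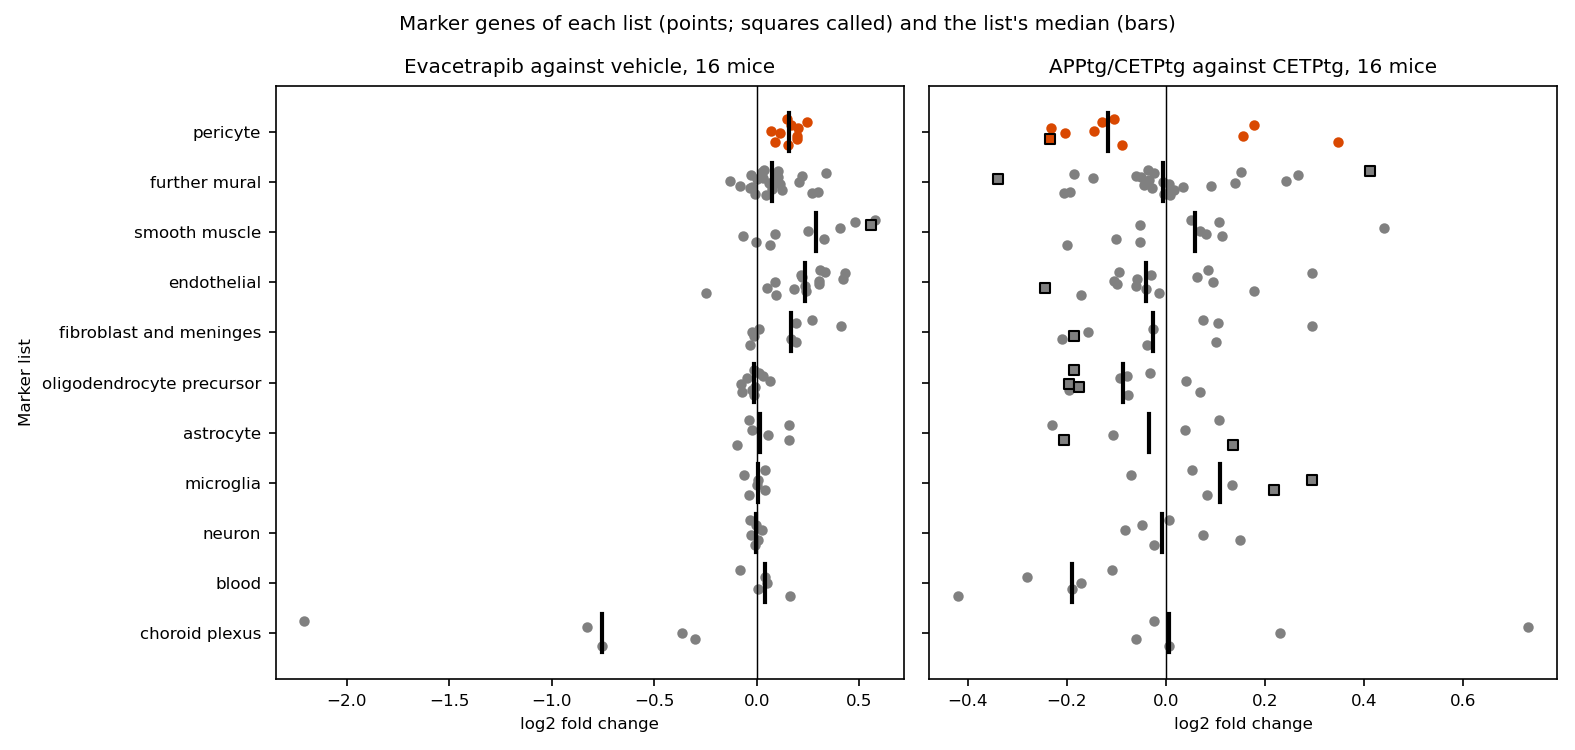
Log2 fold changes (x axis) of each marker gene, by list (y axis), for evacetrapib against vehicle (left) and APPtg/CETPtg against CETPtg (right) over 16 mice. Points are genes, squares are called genes and bars are list medians; pericyte markers, in orange, had medians of 0.159 and -0.117.

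Across mice, the 10 genes did not form 1 tight group. After the group means were removed, 35 of 45 pairs of genes had a positive Pearson correlation over the 16 mice, with a median of 0.22 and a range from -0.57 to 0.82. Pdgfrb and Vtn were the closest pair, with r = 0.82 (permutation p within groups 0.00098, adjusted over 45 pairs 0.0441) and Spearman's rho = 0.85 (permutation p 0.00024, adjusted 0.0108). Without the 2 mice farthest from the median of Pdgfrb, r was 0.75. It was the only pair with an adjusted p of r at most 0.05, and Rgs5 with Abcc9 came next at r = 0.68 (permutation p 0.0206, adjusted 0.273) and 0.45 without the 2 farthest mice.

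Of all other genes, the 5 whose log2 CPM over the 16 mice was most like the mean standardized log2 CPM of the 10 were AU020206 (r = 0.891, rho = 0.821), Erg (r = 0.881, rho = 0.906), Pcsk6 (r = 0.878, rho = 0.768), Myh14 (r = 0.872, rho = 0.729) and Mllt6 (r = 0.869, rho = 0.768). Erg encodes a transcription factor of endothelium, and Pcsk6 a proprotein convertase. The 16 points share group, treatment and library with the 10 genes, so these values are a description.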

How the data were processed

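Poly(A) RNA of bulk brain was sequenced from 16 mice. Per the labels and the study's methods, the authors trimmed 150-base read pairs with Trimmomatic 0.39, aligned them to mm10 with STAR 2.7.8a, marked duplicates with Picard 2.0.1 and deposited raw counts per gene from HTSeq. Its strand setting and annotation are not given in the sources used here. Libraries held 21391335 to 55453789 counts, which sets the counting error, and were not thinned to equal depth.

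Genes that reached 10 counts in 4 or more mice were fitted with edgeR 4.0.16 (quasi-likelihood test, TMM, R 4.3.3), with additive terms for genotype and treatment for the comparisons over all mice and with 4 group means for the others. P-values were adjusted by Benjamini-Hochberg over all genes. A gene was called where the adjusted p reached 0.05 and the groups differed by 5% or more. Standard errors were taken from the log2 fold change and its F statistic. Log2 CPM used a prior count of 2. Correlations used 100000 permutations within groups. DESeq2 1.42.0, limma-voom (limma 3.58.1), other filters, size factors and terms, a replicate block, and each mouse left out were alternatives. Scripts were tested on simulated data. Gene positions and exon lengths came from GENCODE M21 on GRCm38, and promoters from RefSeq.

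The text names the 10 markers, 19 genes of related pathways and cell types whether or not they moved, every listed gene called over all mice or among vehicle mice, and the 5 genes most like the markers. Members and lists were chosen with earlier results of these data known. No mouse was left out of the main tests. Each library is 1 mouse, and mice of a group differed by more than counting noise (chi-square per degree of freedom 4.74 to 21.3 over 24 pairs).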

Additional observations from a re-analysis of the deposited data

Results flagged for a closer look

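Of 40 sets of 4 mice (10 genes in 4 groups), 3 held a mouse that stood apart from the other 3 of its group by Dixon's test at the 95% level, and chance gives about 1 such flag in 20 sets. Rgs5 in APPtg/CETPtg vehicle mouse S8 was 69.5 CPM, and the next highest mouse of the group had 57.2 CPM. S8 was also the deepest library, with 55453789 counts, and had the highest sum of choroid plexus markers, 459.8 CPM. Its red cell genes summed to 230.7 CPM, the highest of its group. The part of these in the Rgs5 value was not tested. Rgs5 in CETPtg evacetrapib mouse B was 69.1 CPM, under the next lowest at 79.6 CPM. Kcnj8 in CETPtg vehicle mouse S1 was 2.49 CPM, under the next lowest at 3.25 CPM, from 83 reads.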

How the results depend on the processing

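Of 1210 values of the 10 genes under alternatives, 1162 kept their sign and their side of the threshold, 18 became called, 1 lost its call and 29 changed sign, none of these with a call on either side. Of the 10, 1 gene was called for treatment over all mice and 2 within APPtg/CETPtg both with DESeq2 and with no filter on low counts, against 0 in each with edgeR, the filter and all mice. For genotype, 2 of the 10 were called with DESeq2 (20% of all genes) and 3 at an adjusted p of at most 0.1 (24.3% of all genes), against 1 (17.7%). In the splits added after the data were seen, 2 of the 10 were called for genotype among vehicle mice (median log2 fold change -0.211), where 10.4% of all genes were. Among evacetrapib mice 0 of the 10 were called (-0.019), where 2.99% of all genes were, and Notch3 lost its call. The genotype value of Vtn was -0.012 among vehicle mice and that of Atp13a5 was 0.05 among evacetrapib mice, both of opposite sign to the value over all mice. Higd1b within APPtg/CETPtg was -0.007 with no filter and -0.025 with limma-voom. The cause of these shifts was not tested.

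With each mouse left out in turn, 0 to 1 of the 10 genes were called for treatment within APPtg/CETPtg, the 1 being Rgs5 without S8 (0.076% of all genes). For genotype 1 to 3 of the 10 were called, with 3 without mouse G (17.4% of all genes) or S8 (14.8%). Values that changed sign there ranged from -0.088 to 0.147 for Higd1b and -0.038 to 0.232 for Kcnj8 for treatment within APPtg/CETPtg. Within CETPtg they ranged from -0.063 to 0.035 for Cspg4, -0.026 to 0.084 for Vtn and -0.036 to 0.095 for Atp13a5. The interaction term ranged from -0.242 to 0.028 for Kcnj8 and -0.128 to 0.133 for Abcc9. Over all genes, edgeR called 35 for treatment over all mice with no filter and 59 with DESeq2, against 2, and 88 and 73 within APPtg/CETPtg, against 8. With no filter, edgeR called 9 genes within CETPtg and 29 for the interaction, against 0 in each, and DESeq2 called 2 for the interaction. Without S8, edgeR called 8 genes for treatment over all mice and 14 within APPtg/CETPtg. The column headers number the mice 1 to 4 within each group, and a replicate block on this number was added after the data were seen. The same number does not mark the same animal. Over 24 same-numbered pairs of mice, the correlation of deviations from the group means ran from -0.2 to 0.17, with 1 pair above 0.1, and 3 of the 16 mice correlated best with their own number. With the replicate block, edgeR called 3 of all genes for treatment over all mice, 5 within APPtg/CETPtg and 3227 for genotype, no call of the 10 genes changed, and Higd1b within APPtg/CETPtg was -0.007 and the interaction term of Abcc9 0.002, both of opposite sign. At 27 to 117 reads per mouse for Higd1b and 47 to 228 for Kcnj8, small differences in these genes were not detectable.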
